A study of Mus musculus with 12 samples.

Results

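The galanin and neuropeptide Y systems of the mouse striatum were described through 8 genes. These were the peptide genes *Gal* and *Npy*, the galanin receptor genes *Galr1*, *Galr2* and *Galr3*, and the neuropeptide Y receptor genes *Npy1r*, *Npy2r* and *Npy5r*. They were chosen by symbol from the transcript table, where they made up 8 of 52169 gene symbols and 22 of 189660 transcripts. Each gene was read on its transcript of highest mean level over all libraries.

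The libraries were RNA-seq libraries of striatal tissue from female hemiparkinsonian C57BL/6J mice, whose age is not given in the sources used here. In these mice the dopaminergic fibres to 1 striatum had been destroyed by injecting the toxin 6-OHDA (1 µl at 3 µg/µl) into the right medial forebrain bundle, after desipramine (25 mg/kg), which keeps the toxin out of noradrenergic terminals. After 2 weeks of recovery every mouse received L-DOPA (10 mg/kg), the precursor of dopamine, with benserazide (7.5 mg/kg), an inhibitor of the peripheral enzyme that turns L-DOPA into dopamine. The injections were given once (acute L-DOPA) or daily for 9 days (chronic L-DOPA), and the tissue was taken 1 h after the last of them. The 4 groups of 3 libraries were the acute unlesioned, acute lesioned, chronic unlesioned and chronic lesioned striatum. All 4 groups had received L-DOPA and benserazide, so the lesion effects given here are effects under L-DOPA, and the unlesioned striatum is the opposite side of mice that carry a lesion.

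Levels are given as CPM, a transcript's counts per 1000000 counts of the library after TMM scaling. The totals over all transcripts were 87695043 to 173116525 counts per library, and 3 counts corresponded to 0.0171 to 0.0347 CPM. Markers of striatal spiny neurons, the main neurons of this tissue, summed to 1778 to 2434 CPM in the 12 libraries. Single markers moved in opposite directions within this sum, with 4 of 9 higher and 4 lower on the lesioned side after acute L-DOPA. *Drd1a*, the D1 receptor gene, had means of 66.7 and 13.5 CPM on the unlesioned and lesioned side after acute L-DOPA, and *Penk*, the enkephalin gene, 353 and 673 CPM. After chronic L-DOPA 2 of the 9 markers were higher and 1 was lower. The 6 markers of cortical glutamatergic neurons summed to 14.6 to 31.2 CPM in the acute unlesioned, 4.78 to 17.5 CPM in the acute lesioned, 8.22 to 42.8 CPM in the chronic unlesioned and 4.34 to 24.3 CPM in the chronic lesioned libraries. Astrocyte markers summed to 73.8 to 81.7 CPM in the acute unlesioned and 99.3 to 132 CPM in the acute lesioned libraries, and to 52.2 to 69.2 and 85.1 to 131 CPM in the chronic ones. Oligodendrocyte markers summed to 1939 to 3257 CPM in the acute lesioned and 1078 to 1915 CPM in the chronic lesioned libraries, with 4 of 4 called lower, and to 1918 to 2163 and 1440 to 2069 CPM in the unlesioned ones. Blood markers summed to 4.44 to 8.58 CPM in the acute lesioned and 1.58 to 3.00 CPM in the chronic lesioned libraries, with 2 of 3 called lower, and microglia markers to 41.2 to 50.3 and 30.1 to 37.9 CPM, with 2 of 4 called lower. Chronic unlesioned replicate 2 stood apart, with 457 CPM of choroid plexus markers against 0.159 to 1.58 CPM in the other libraries. Without this library, the chronic lesion effects of *Gal*, *Galr1* and *Npy* given further on were 3.59, 1.38 and 0.77 on the log2 scale and all passed. Both chronic libraries numbered 2 also held the most of 2 other markers. *Pvalb*, of parvalbumin interneurons, was at 14.4 CPM in the unlesioned and 8.95 CPM in the lesioned one. *Slc17a6*, of subcortical glutamatergic neurons, was at 2.70 and 0.751 CPM. The part of other cell types in the results was not tested. Whole tissue was sequenced, so fewer cells of a type and less RNA per cell cannot be told apart.

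Galanin and neuropeptide Y are peptides released by neurons beside classical transmitters. Galanin acts on receptors that couple mainly to Gi/o proteins (GalR1, GalR3) or also to Gq (GalR2), whereas the Y1, Y2 and Y5 receptors couple to Gi/o. In the striatum neuropeptide Y is made mainly by GABAergic interneurons, many of which also express somatostatin and nitric oxide synthase. Y1 and Y5 receptors are mostly postsynaptic, and the Y2 receptor is best known as a presynaptic receptor that lowers transmitter release.

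Positions are given on the mm9 genome. *Gal* (NM_010253) lies on the minus strand at chr19:3409917-3414457, with 6 exons, and *Npy* (AK002982) on the plus strand at chr6:49772717-49779500. *Galr3* (NM_015738) lies on the plus strand at chr15:78872315-78873988 and *Npy2r* (ENSMUST00000029633) on the minus strand at chr3:82342305-82352008. *Npy1r* (AK132397), on the plus strand at chr8:69221321-69230691, and *Npy5r* (NM_016708), on the minus strand at chr8:69203864-69211993, are neighbours that point away from each other, 9327 bases apart. *Galr2* spans chr11:116142253-116145252 on the plus strand, but its transcript of highest mean CPM, AK137830, is a clone of the opposite strand at chr11:116141414-116145674. CPM is not scaled by length, and AK137830 is longer than the RefSeq transcript of the gene.

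The promoters of the 2 peptide genes, which were higher on the lesioned side after chronic L-DOPA, and of the Y receptor pair that shares a neighbourhood are printed here. They are RefSeq sequences (GRCm38.p6) from 250 bases before to 50 bases after the start, each found once in mm9, and capitals mark motif matches. The 4 motifs were searched on both strands: the cAMP response element TGACGTCA, which contains its core TGACG, the AP-1 site TGANTCA and the Egr site GCGNGGGCG.
Gal, minus strand, chr19:3414495-3414794: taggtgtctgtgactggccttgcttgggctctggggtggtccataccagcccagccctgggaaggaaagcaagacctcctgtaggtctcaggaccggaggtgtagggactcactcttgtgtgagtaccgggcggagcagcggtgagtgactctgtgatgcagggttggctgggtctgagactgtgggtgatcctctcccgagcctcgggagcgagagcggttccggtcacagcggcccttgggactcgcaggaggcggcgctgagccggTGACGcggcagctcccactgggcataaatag
Npy, plus strand, chr6:49772459-49772758: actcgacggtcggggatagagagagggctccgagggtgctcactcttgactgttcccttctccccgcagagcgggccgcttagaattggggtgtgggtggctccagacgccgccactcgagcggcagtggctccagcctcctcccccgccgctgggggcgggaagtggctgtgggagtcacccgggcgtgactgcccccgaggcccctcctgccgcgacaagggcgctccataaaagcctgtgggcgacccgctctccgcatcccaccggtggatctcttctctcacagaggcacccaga
Npy1r, plus strand, chr8:69221071-69221370: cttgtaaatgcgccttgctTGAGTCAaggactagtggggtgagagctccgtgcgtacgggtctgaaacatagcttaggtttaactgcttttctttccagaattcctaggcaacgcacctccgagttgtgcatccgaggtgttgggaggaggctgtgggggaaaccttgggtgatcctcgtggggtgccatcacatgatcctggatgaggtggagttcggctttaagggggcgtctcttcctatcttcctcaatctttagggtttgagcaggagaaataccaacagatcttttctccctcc
Npy5r, minus strand, chr8:69211944-69212243: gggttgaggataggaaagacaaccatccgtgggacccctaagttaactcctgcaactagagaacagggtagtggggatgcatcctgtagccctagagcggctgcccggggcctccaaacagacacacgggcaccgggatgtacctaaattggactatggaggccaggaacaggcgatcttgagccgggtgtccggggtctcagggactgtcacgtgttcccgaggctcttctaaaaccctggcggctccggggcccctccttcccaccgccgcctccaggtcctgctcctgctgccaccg
The *Gal* sequence held the core TGACG at bases 20 to 24 after its RefSeq start, and it lies wholly upstream of the start of the listed *Gal* transcript. The *Npy1r* sequence held the AP-1 letters TGAGTCA from base -231 to base -225. The *Npy* and *Npy5r* sequences held none of the 4 motifs, nor did those of *Galr2* and *Npy2r*. The promoters of *Galr1* and *Galr3* were not among those examined here. Among 32851 promoters of the same length, 20.8% held the core, 1.79% the full element, 7.81% the AP-1 site and 5.55% the Egr site. A match describes the letters only.

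*Gal*, which encodes the galanin precursor, was nearly absent from the striatum except after chronic L-DOPA in the lesioned side. Its counts were 5, 2 and 4 in the acute unlesioned, 4, 5 and 3 in the acute lesioned and 6, 9 and 2 in the chronic unlesioned libraries, but 33, 37 and 50 in the chronic lesioned libraries. In CPM, the chronic lesioned libraries were at 0.377, 0.339 and 0.458, and no other library exceeded 0.0754. The chronic lesioned group therefore did not overlap with any other group. The group means were 0.0243 ± 0.0085 CPM in the acute unlesioned, 0.0387 ± 0.0166 CPM in the acute lesioned, 0.0479 ± 0.0315 CPM in the chronic unlesioned and 0.391 ± 0.0611 CPM in the chronic lesioned striatum (SD, n = 3).

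*Gal* passed the filter only in comparisons that include the chronic lesioned libraries, where it is high. Its p-values there are therefore no independent support for the rise. After chronic L-DOPA, *Gal* was 8.41-fold higher on the lesioned side (log2 fold change 3.07, SE 0.41, adjusted p = 0.000823). Within the lesioned striatum, it was 10.3-fold higher after chronic than after acute L-DOPA (log2 fold change 3.36, SE 0.35, adjusted p = 0.000106). After acute L-DOPA its counts were under the filter, and the fit without a filter gave a log2 fold change of 0.58 (SE 0.66, adjusted p = 0.638) between the sides. The lesion effect on *Gal* after chronic L-DOPA exceeded that after acute L-DOPA by 2.49 on the log2 scale (SE 0.77), which missed the threshold (adjusted p = 0.0859). Without chronic unlesioned replicate 2 the same difference was 3.02 and passed (adjusted p = 0.0489). The level stayed low for a peptide gene, since the 12 libraries together held 160 counts of it.

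Galanin is also made outside the striatum, in noradrenergic neurons and in the hypothalamus. The noradrenergic markers *Dbh* and *Slc6a2* summed to 0.0114, 0.0275 and 0.0458 CPM in the chronic lesioned libraries and to 0 to 0.0202 CPM in the other 9. These sums are of very few reads. Chronic lesioned replicate 2 (0.0275 CPM) and chronic unlesioned replicate 3 (0.0202 CPM) both held 3 counts. *Slc6a2* had no more than 3 counts throughout. The 6 hypothalamic peptide markers summed to 0.284 to 0.462 CPM in the acute unlesioned, 0.486 to 1.01 CPM in the acute lesioned, 0.622 to 0.762 CPM in the chronic unlesioned and 0.806 to 1.32 CPM in the chronic lesioned libraries. Of these, *Hcrt* was at or under 3 counts in every library. The part of these cells in the *Gal* counts was not tested.

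*Npy*, which encodes the neuropeptide Y precursor, was the most abundant of the 8 genes in every group. The acute unlesioned libraries held 11.1, 10.8 and 11.3 CPM and the acute lesioned libraries 11.9, 12.5 and 12.6 CPM. The chronic unlesioned libraries held 12.5, 11.1 and 11.7 CPM and the chronic lesioned libraries 19.9, 19.1 and 23.0 CPM. Only the chronic lesioned libraries stood well above the rest, and the acute lesioned libraries lay just above the acute unlesioned ones without overlap.

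*Npy* rose 1.76-fold in the lesioned over the unlesioned striatum after chronic L-DOPA (log2 fold change 0.81, SE 0.09, adjusted p = 0.000224). It was also 1.68-fold higher in the chronic than in the acute lesioned striatum (adjusted p = 0.000189). The small difference after acute L-DOPA (0.16 on the log2 scale, SE 0.06) missed the threshold (adjusted p = 0.0950) and passed once the replicate number was a block (adjusted p = 0.0431). In the unlesioned striatum the 2 treatments differed by 0.09 (SE 0.07, adjusted p = 0.472). The lesion effect was larger after chronic than after acute L-DOPA by 0.65 on the log2 scale (SE 0.11, adjusted p = 0.00199). The 3 transcripts listed for *Npy* share reads and gave 0.81 to 0.85 in the chronic comparison.

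**Figure D1:**
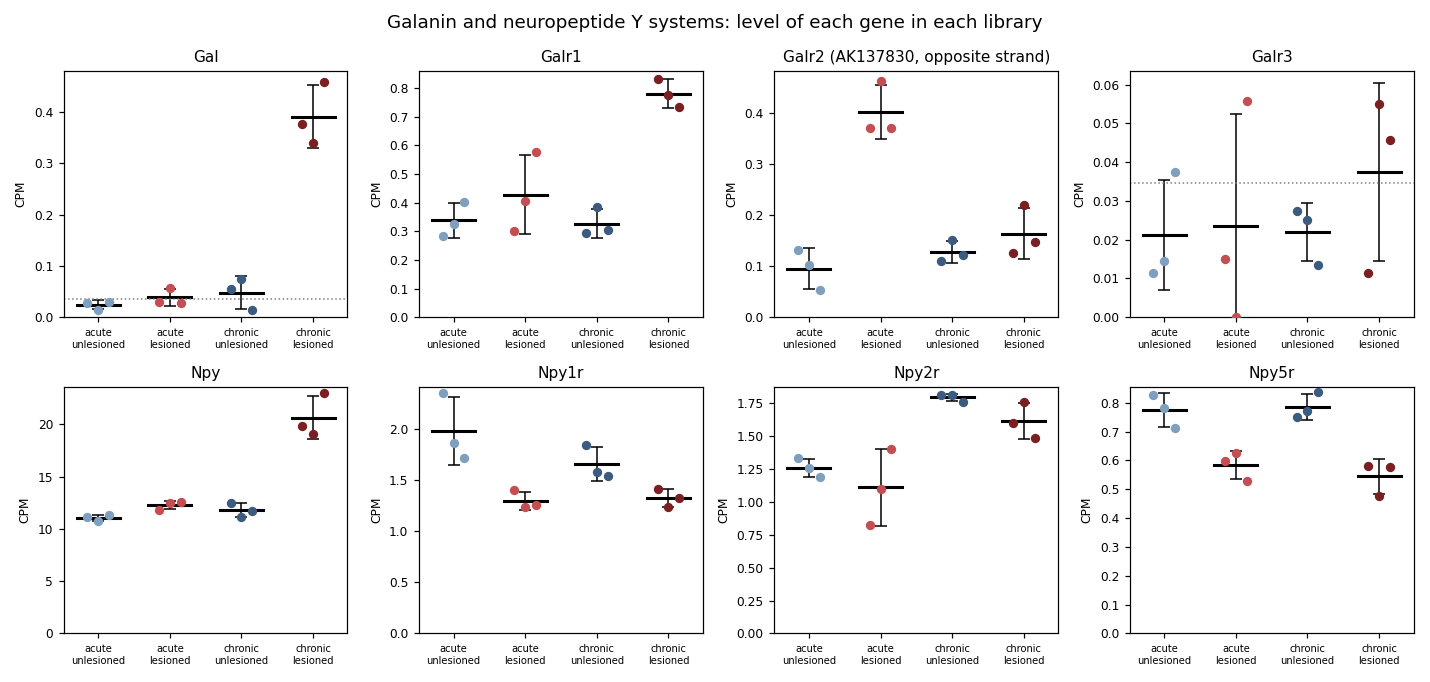
CPM (linear axes from 0, a scale of its own in each panel) of the 8 genes in the 4 groups. Points are libraries, horizontal lines are means and bars are SD (n = 3). The dotted line in the *Gal* and *Galr3* panels is 3 counts in the shallowest library (0.0347 CPM). The 3 chronic lesioned libraries stand above all others for *Gal*, *Galr1* and *Npy*, and the 3 acute lesioned libraries do so for *Galr2*.

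Other genes of the Npy interneurons had values in either direction. *Sst*, encoding somatostatin, was at 39.2, 42.6 and 40.5 CPM in the chronic unlesioned and 47.7, 49.9 and 56.1 CPM in the chronic lesioned libraries, a rise of 0.33 on the log2 scale (SE 0.08, adjusted p = 0.0282). *Nos1*, encoding neuronal nitric oxide synthase, fell from 12.4, 12.4 and 15.9 CPM to 9.62, 9.02 and 9.45 CPM (log2 fold change -0.53, SE 0.10, adjusted p = 0.00775). *Chodl*, a marker of the same cells, was at 0.311 to 0.412 CPM and 0.228 to 0.311 CPM, and the difference did not pass (log2 fold change -0.35, SE 0.23, adjusted p = 0.391). After chronic L-DOPA *Npy* and *Sst* were thus higher and *Nos1* lower in the same lesioned libraries.

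Of the 7 genes of the interneuron list, which holds *Npy* itself, 3 rose and 1 fell in the chronic comparison, against 13.7% of all genes called. *Gad1*, a GABA-synthesizing enzyme of striatal projection neurons and interneurons alike, was the third that rose (log2 fold change 0.95, SE 0.12, adjusted p = 0.00061). After acute L-DOPA 1 of the 7 passed, again *Gad1* (0.27, SE 0.07, adjusted p = 0.0198), against 15.3% of all genes. *Lhx6*, a transcription factor of these interneurons, had a log2 fold change of -0.28 after chronic L-DOPA (SE 0.11, adjusted p = 0.146). The lesion effects of *Nos1* and *Npy* differed between the treatments in opposite directions, by -0.58 (SE 0.13, adjusted p = 0.0178) and 0.65. The sum of the cholinergic interneuron markers was also lower in the chronic lesioned libraries, at 18.2 to 21.1 CPM against 23.0 to 27.8 CPM in the chronic unlesioned ones.

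**Figure D2:**
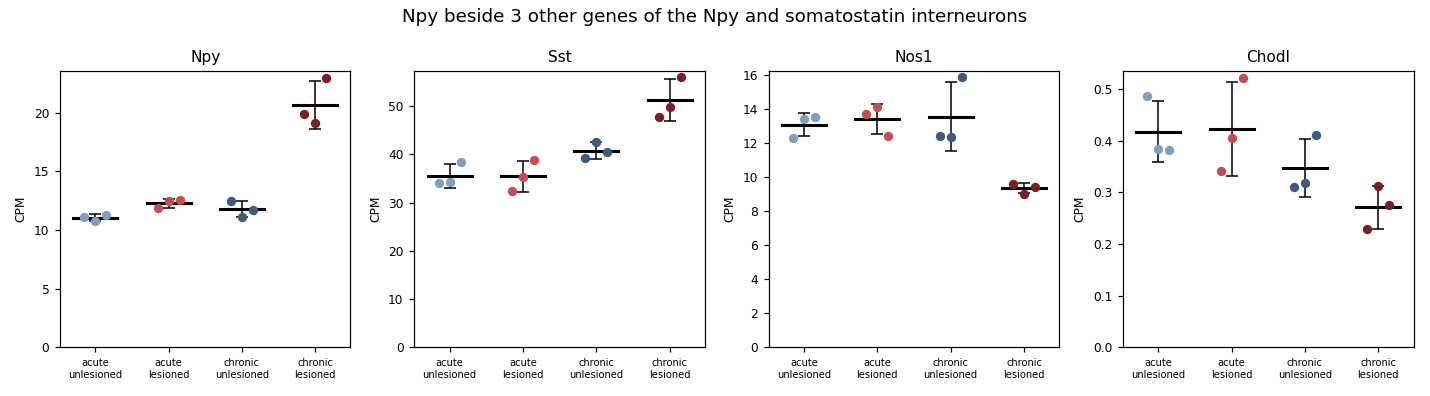
CPM (linear axes from 0) of *Npy*, *Sst*, *Nos1* and *Chodl* in the 4 groups, with points for libraries, lines for means and bars for SD (n = 3). In the chronic lesioned group *Npy* and *Sst* lie above and *Nos1* below every library of the other groups.

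*Galr1*, the Gi/o-coupled galanin receptor, rose in the same libraries as *Gal*. It lies on the minus strand at chr18:82561888-82576169 (NM_008082, 2871 bases). It was at 0.285, 0.326 and 0.404 CPM in the acute unlesioned, 0.303, 0.405 and 0.576 CPM in the acute lesioned, 0.293, 0.385 and 0.304 CPM in the chronic unlesioned and 0.833, 0.778 and 0.733 CPM in the chronic lesioned libraries. The chronic lesioned libraries did not overlap with those of any other group. The chronic lesioned striatum was 2.39-fold above the unlesioned (log2 fold change 1.26, SE 0.18, adjusted p = 0.00147). Against the acute lesioned striatum it was 1.84-fold higher (log2 fold change 0.88, SE 0.23, adjusted p = 0.0178). That call was lost without acute lesioned replicate 1 (0.65, adjusted p = 0.0677), without acute lesioned replicate 2 (0.85, adjusted p = 0.0617) or without chronic lesioned replicate 1 (0.83, adjusted p = 0.0659). After acute L-DOPA the sides differed by 0.34 (SE 0.25, adjusted p = 0.394). The lesion effects of the 2 treatments differed by 0.91 (SE 0.32, adjusted p = 0.127), and by 0.93 with the replicate number as a block, which passed (adjusted p = 0.0278). Without acute lesioned replicate 3 it was 1.20 and passed too (adjusted p = 0.0371).

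*Galr2*, the galanin receptor that also couples to Gq, was higher on the lesioned side after acute L-DOPA. Its top row was at 0.131, 0.101 and 0.0524 CPM in the acute unlesioned and 0.371, 0.462 and 0.372 CPM in the acute lesioned libraries. The chronic unlesioned libraries were at 0.110, 0.151 and 0.121 CPM and the chronic lesioned libraries at 0.126, 0.220 and 0.147 CPM. The 3 acute lesioned libraries were the highest of all 12, and the other groups overlapped with each other. After acute L-DOPA the row was 4.08-fold higher on the lesioned side (log2 fold change 2.03, SE 0.29, adjusted p = 0.000881). After chronic L-DOPA the difference between the sides was 0.38 (SE 0.32, adjusted p = 0.511). Within the lesioned striatum the row was 2.40-fold lower after chronic than after acute L-DOPA (adjusted p = 0.00779). The lesion effects differed by -1.65 (SE 0.45), a difference close to the threshold (adjusted p = 0.0493). It was lost in 10 of 12 fits that each left out 1 library, and passed only without acute unlesioned replicate 1 or chronic lesioned replicate 2.

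The top *Galr2* row does not follow the gene's own strand. AK137830 is unspliced, 4261 bases long, and runs opposite to *Galr2*, covering both exons, the 1060-base intron and 839 and 422 bases on either side. The library kit does not mark the strand, so reads of *Galr2* and of an antisense RNA cannot be told apart. The RefSeq transcript of the gene itself (NM_010254, 1940 bases in 2 exons) had 12, 7 and 7 counts in the acute unlesioned, 19, 21 and 13 in the acute lesioned, 4, 8 and 8 in the chronic unlesioned and 4, 10 and 6 in the chronic lesioned libraries. Its acute rise was 1.50 on the log2 scale (SE 0.37, adjusted p = 0.0203). It passed the filter only in comparisons that include the acute lesioned libraries, where it is high. No test between the sides after chronic L-DOPA exists for it, and its calls are no independent support. The counts on AK137830 beyond those on NM_010254 were 11, 7 and 0 in the acute unlesioned and 30, 19 and 27 in the acute lesioned libraries. In the chronic libraries they were 8, 10 and 10 on the unlesioned and 7, 14 and 10 on the lesioned side. The counts on NM_010254 and this difference were thus both higher in the acute lesioned libraries. The difference is not an exact count of reads outside the exons, since reads spliced across the intron may count on NM_010254 alone. On NM_010254 the chronic lesioned striatum was 1.33 below the acute lesioned on the log2 scale (SE 0.41, adjusted p = 0.0397), while the difference of the lesion effects did not pass (-1.21, SE 0.58, adjusted p = 0.282). All 5 *Galr2* rows, which share reads, passed in the acute comparison. Apart from AK137830, they passed the filter only in comparisons that include the acute lesioned libraries.

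**Figure D3:**
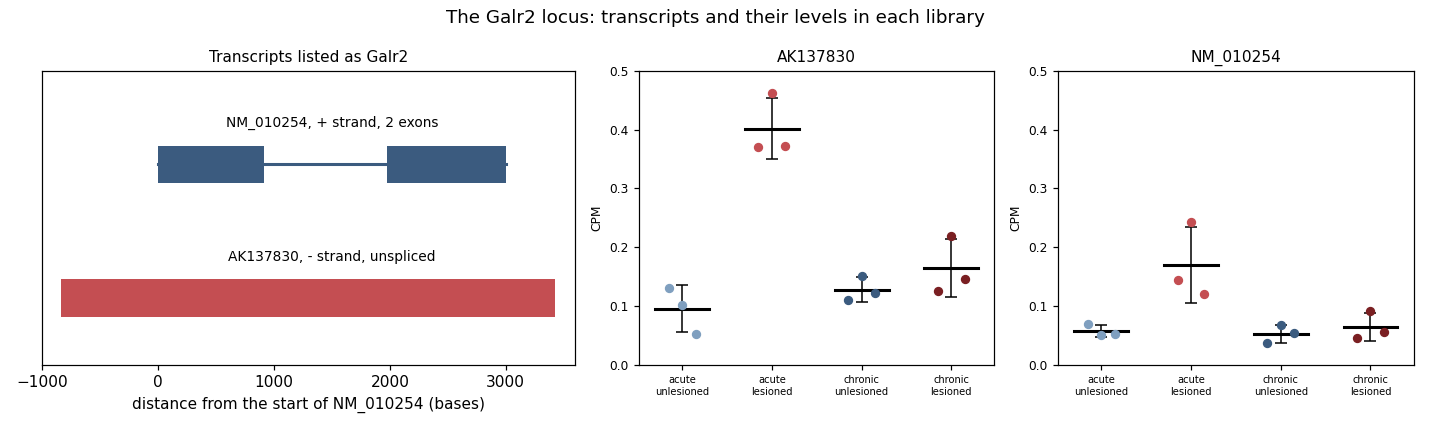
Left, the 2 transcripts at the *Galr2* locus by distance in bases from the start of NM_010254, with boxes for exons and a line for the intron. Right, the CPM of each in the 4 groups on the same linear axis (points for libraries, lines for means, bars for SD, n = 3); both are highest in the acute lesioned group.

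*Galr3*, the remaining galanin receptor gene, was at the limit of detection, with 0 to 6 counts per library. Its means were 0.0211, 0.0236, 0.0220 and 0.0374 CPM in the acute unlesioned, acute lesioned, chronic unlesioned and chronic lesioned striatum. The chronic unlesioned libraries held at most 3 counts each, so no fold change against them is given. *Galr3* did not pass the filter in any comparison, and it overlaps with the neighbouring gene *Gcat*. No difference was detectable at this depth.

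*Npy1r*, encoding the postsynaptic Y1 receptor, was lower on the lesioned side after acute L-DOPA. It was at 2.35, 1.86 and 1.71 CPM in the acute unlesioned and 1.40, 1.24 and 1.25 CPM in the acute lesioned libraries. The chronic unlesioned libraries were at 1.85, 1.58 and 1.54 CPM and the chronic lesioned libraries at 1.42, 1.24 and 1.33 CPM. Lesioned and unlesioned libraries did not overlap under either treatment. After acute L-DOPA *Npy1r* was 1.51-fold lower in the lesioned striatum (log2 fold change -0.60, SE 0.13, adjusted p = 0.012). After chronic L-DOPA the difference was -0.32 (SE 0.13) and did not pass (adjusted p = 0.142). The 2 lesion effects differed by 0.28 (SE 0.18, adjusted p = 0.438). A shorter listed transcript of *Npy1r* had 7 to 37 counts per library. Its log2 fold change was -1.19 after acute L-DOPA (SE 0.36, adjusted p = 0.0489). After chronic L-DOPA it was 0.33 (SE 0.33, adjusted p = 0.588), with libraries that overlapped.

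*Npy5r*, encoding the Y5 receptor and the divergent neighbour of *Npy1r*, had values in the same direction. Its libraries were at 0.828, 0.783 and 0.711 CPM in the acute unlesioned, 0.598, 0.624 and 0.530 CPM in the acute lesioned, 0.750, 0.771 and 0.837 CPM in the chronic unlesioned and 0.582, 0.476 and 0.577 CPM in the chronic lesioned striatum. The sides again did not overlap under either treatment. The log2 fold changes were -0.40 after acute L-DOPA (SE 0.14, adjusted p = 0.0825) and -0.53 after chronic L-DOPA (SE 0.16, adjusted p = 0.059). The chronic difference passed with the replicate number as a block (-0.53, adjusted p = 0.0331) and in a fit of all 12 libraries (adjusted p = 0.0152). The acute difference did not pass with the block. The promoters of the pair, printed above, share none of the searched motifs.

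Cortical marker sums were also lower in the lesioned library of all 3 same-numbered pairs under either treatment. The chronic libraries numbered 1 hardly differed (25.5 against 24.3 CPM). From library to library the sums did not always follow *Npy1r* and *Npy5r*. Chronic unlesioned replicate 2 had a sum of 8.22 CPM and chronic lesioned replicate 1 of 24.3 CPM. *Npy1r* was at 1.58 and 1.42 CPM in these, and *Npy5r* at 0.771 and 0.582 CPM. *Slc17a7* made up most of the group means of the sum, but not of the sum in every lesioned library, where *Cux2* was at no less than 2.23 CPM beside sums down to 4.34 CPM. After acute L-DOPA 1 of the 6 markers passed as higher (*Cux2*) and 1 as lower. *Cux2* had means of 2.38 and 3.02 CPM on the unlesioned and lesioned side after acute L-DOPA. With the summed cortical markers as a covariate, an alternative chosen after seeing the data, the acute difference of *Npy1r* was -0.36 (SE 0.15) and no longer passed (adjusted p = 0.134). That of *Npy5r* was -0.31 (SE 0.19, adjusted p = 0.328) after acute and -0.47 (SE 0.20, adjusted p = 0.189) after chronic L-DOPA. The covariate was itself lower on the lesioned side in every pair, so it cannot be fully told apart from the side. The part of cortical cells in the differences of *Npy1r* and *Npy5r* was not tested.

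*Npy2r*, encoding the presynaptic Y2 receptor, followed the treatment more than the side. It was at 1.33, 1.25 and 1.19 CPM in the acute unlesioned, 0.825, 1.10 and 1.40 CPM in the acute lesioned, 1.81, 1.81 and 1.76 CPM in the chronic unlesioned and 1.60, 1.76 and 1.48 CPM in the chronic lesioned libraries. Every chronic library was above every acute library, and the acute lesioned libraries were spread widely. Chronic exceeded acute L-DOPA by 0.55 in the lesioned (SE 0.18, adjusted p = 0.0469) and by 0.51 in the unlesioned striatum (SE 0.10, adjusted p = 0.0299). Both calls were fragile. The first was lost in 5 of 6 fits that each left out 1 library, all except the one without acute lesioned replicate 3. The second was lost in 5 of 6, all except the one without chronic unlesioned replicate 2, the library rich in choroid plexus markers. Between the sides *Npy2r* differed by -0.19 after acute (SE 0.16, adjusted p = 0.494) and -0.15 after chronic L-DOPA (SE 0.12, adjusted p = 0.472). The row lies on the same strand as an overlapping clone, AK039154, so some of its reads may not be *Npy2r*.

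**Figure D4:**
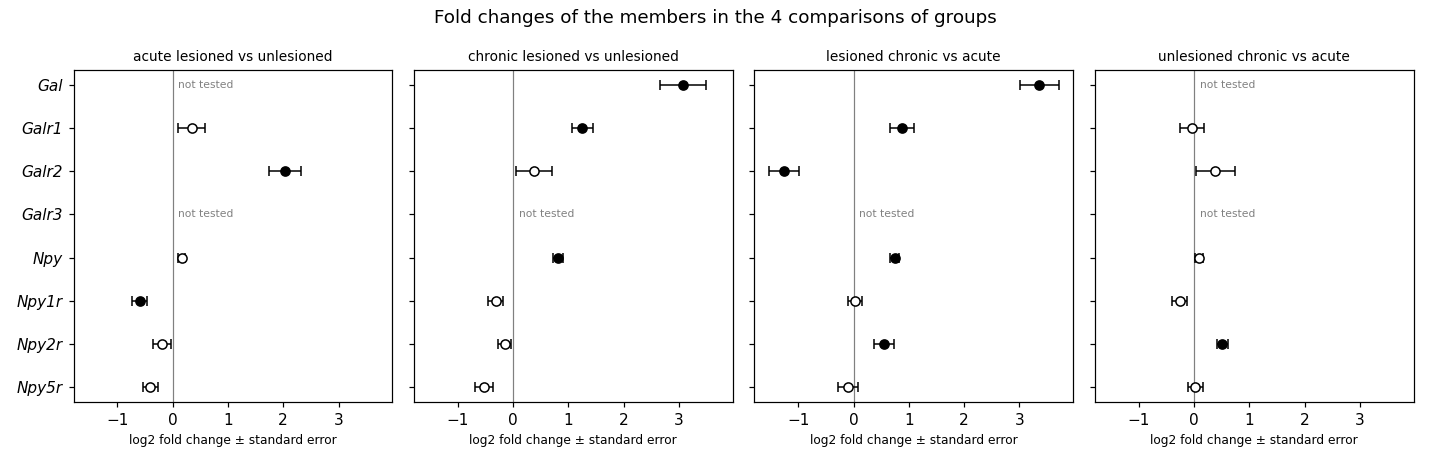
Log2 fold changes (horizontal axis) of those of the 8 genes (rows) that could be tested in the 4 comparisons of groups, with bars for the standard error (n = 3 libraries per group). Filled points passed an adjusted p of 0.05 and open points did not. *Galr3* in every panel, and *Gal* after acute L-DOPA and in the unlesioned striatum, have no point and are marked as not tested. *Gal*, *Galr1* and *Npy* are filled and to the right in the 2 comparisons that involve the chronic lesioned libraries as the numerator, and *Galr2* is filled to the right after acute L-DOPA only among comparisons between sides.

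Of the 8 genes, 6 could be tested in every comparison. *Gal* entered only those comparisons that include the chronic lesioned libraries, where it is high, so it is left out of the counts that follow. After acute L-DOPA 1 of these 6 rose (*Galr2*) and 1 fell (*Npy1r*), against 15.3% called over all genes, each by its transcript of highest mean CPM as here. After chronic L-DOPA 2 of 6 passed, both of them higher (*Galr1*, *Npy*), against 13.7% called in all and 8.46% called higher. In the lesioned striatum 3 of 6 were higher after chronic than after acute L-DOPA (*Galr1*, *Npy*, *Npy2r*) and 1 was lower (*Galr2*), against 25.6% called. In the unlesioned striatum 1 of 6 passed (*Npy2r*), against 3.07%. The lesion effects differed for 2 of 6 (*Npy* and *Galr2*), against 5.10%. The comparisons share libraries, so these counts are not independent. Libraries of the lesioned and unlesioned side did not overlap for 4 of the 6 genes after acute L-DOPA, where this held for 35.1% of all genes tested, and for 5 of 6 after chronic L-DOPA, where it held for 32.1%. Chronic and acute libraries did not overlap for 4 of 6 in the lesioned striatum, against 41.9%, and for 1 of 6 in the unlesioned striatum, against 26.6%. The median log2 fold change of the 6 genes was 0.12 after chronic and -0.01 after acute L-DOPA, beside -0.01 and 0.02 over all genes tested.

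Levels of different genes were compared per kilobase of transcript. In the acute unlesioned striatum the order was *Npy* (20.1 CPM per kb), *Npy1r* (0.659), *Npy2r* (0.374), *Npy5r* (0.334), *Galr1* (0.118), *Gal* (0.0348), *Galr2* (0.0223) and *Galr3* (0.017), all in CPM per kb. Neighbours in this order whose libraries overlapped were *Npy2r* and *Npy5r*, *Gal* and *Galr2*, and *Galr2* and *Galr3*. The chronic unlesioned striatum had the same order, and in the acute lesioned striatum *Galr2* (0.0943) came before *Gal* (0.0553). In the chronic lesioned striatum the order was *Npy* (37.4), *Gal* (0.56), *Npy2r* (0.479), *Npy1r* (0.442), *Galr1* (0.272), *Npy5r* (0.236), *Galr2* (0.0385) and *Galr3* (0.03), again in CPM per kb. *Gal* had moved from the sixth place to the second, where its libraries overlapped with those of *Npy2r*. Those of *Npy2r* and *Npy1r* overlapped too, as did those of *Galr2* and *Galr3*, and *Galr1* lay just above *Npy5r* without overlap. *Npy* stayed more than an order of magnitude above every other member in all 4 groups. The *Galr2* values use the length of AK137830.

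Other genes of the 2 families were not expressed at a measurable level. *Pyy*, *Ppy* and *Npy6r* had no count in any of the 12 libraries, and *Galp* and *Ppyr1*, the Y4 receptor gene, had 1 count each in 1 library.

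Genes that make and break down peptides were examined as a list of 14, of which 13 could be tested. After acute L-DOPA 5 were higher and 2 lower in the lesioned striatum, and after chronic L-DOPA 4 were higher and 2 lower, against 15.3% and 13.7% of all genes called. The granins *Scg2* and *Chga*, which help to form secretory granules, were higher after acute L-DOPA (log2 fold changes 0.74 and 0.65) and further after chronic L-DOPA (1.80 and 1.79). *Pcsk1*, a convertase that cuts peptide precursors, was higher under both (1.04 and 1.24). *Furin*, a related convertase, was higher after chronic L-DOPA (0.67, SE 0.09, adjusted p = 0.00111), with -0.04 after acute L-DOPA (adjusted p = 0.797). *Mme*, encoding the peptide-degrading enzyme neprilysin, was lower under both (-0.43 and -0.95). *Pam*, which amidates peptides such as galanin and neuropeptide Y, did not pass (0.12 and 0.17). The lesion effect was larger after chronic L-DOPA for 3 of the 13, *Scg2*, *Chga* and *Furin* (differences of 1.06, 1.15 and 0.71), against 5.10% of all genes.

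Of 21 genes of Gi/o and Gq coupling, 2 were higher and 4 lower after acute L-DOPA, and 1 was higher and 2 were lower after chronic L-DOPA, against 15.3% and 13.7% of all genes called in either direction. *Gnai3*, a Gi alpha subunit, was higher under both treatments (1.21 and 1.45), from 7.14 to 16.5 CPM and from 7.07 to 19.3 CPM. *Kcnj9*, encoding a potassium channel subunit opened by these G proteins, was lower under both (-0.23 and -0.29). *Kcnj3*, another subunit, was lower after chronic L-DOPA (-0.79, SE 0.16, adjusted p = 0.00912). After acute L-DOPA *Plcb1*, encoding a phospholipase C that Gq proteins activate, was lower (-0.35) and *Gnai2*, another Gi alpha subunit, was higher (0.33).

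Among 12 other neuropeptide genes, 11 of them tested, 4 were higher and 3 lower after acute L-DOPA, and 5 passed after chronic L-DOPA, all of them higher, against 15.3% and 13.7% of all genes called in either direction. *Trh*, encoding thyrotropin-releasing hormone, was at 1.27 and 1.50 CPM on the unlesioned and lesioned side after acute and 1.27 and 6.99 CPM after chronic L-DOPA (log2 fold change 2.46 after chronic, 0.24 after acute). *Pdyn*, encoding dynorphins, went from a fall after acute (-0.76) to a rise after chronic L-DOPA (2.50). *Nts*, encoding neurotensin, was higher under both (1.71 and 1.72). *Bdnf*, encoding a growth factor, was lower after acute L-DOPA (-1.88, SE 0.56, adjusted p = 0.0458), although its libraries overlapped between the sides. *Cartpt*, encoding CART peptides, was higher after acute L-DOPA (2.48, SE 0.38, adjusted p = 0.00128) with a value of 1.18 after chronic L-DOPA that did not pass (SE 0.53, adjusted p = 0.192). The difference of the lesion effects passed for 2 of the 11, *Pdyn* and *Trh* (3.26 and 2.22), against 5.10% of all genes.

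The genes whose levels followed the members most closely over the 12 libraries were found by Pearson correlation among 12797 genes, as a description of libraries that share lesion, treatment and depth. For *Npy* these were *Klc1* (0.990), *Plagl1* (0.986) and *Rara* (0.986). For *Galr1* they were *Pgrmc1* (0.954), *Zfp593* (0.951) and *Ngfrap1* (0.950), and for the top *Galr2* row *Gm6297* (0.950), *2310031A07Rik* (0.939) and *Dnajb1* (0.937), a heat shock co-chaperone. *Npy1r* was closest to *2610021A01Rik* (0.950), *Chmp2b* (0.934) and *Spcs3* (0.933). *Npy2r* was closest to *Rwdd2a* (0.957), *Cops5* (0.932) and *Tctex1d2* (0.918), and *Npy5r* to *Stc1* (0.955), *Dock4* (0.949) and *Znfx1* (0.947). *Gal* and *Galr3* had too few counts to be compared.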

How the data were processed

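Striatal RNA-seq libraries of 4 groups, 3 per group, were analysed. The authors prepared them with a TruSeq kit that does not mark strand, mapped the reads to mm9 and deposited raw counts per transcript. Reads that overlap several transcripts were counted on each of them. Settings for reads with several positions are not given in the sources used here. The authors' processing notes name mm9 and DESeq. A deposited normalized signal (48 columns of per-sample values in all) was not used, nor were 3 tables of the authors' p-values and fold changes. Rows that name no gene (296, with 0.0485% of counts) were left out.

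Each pair of groups was fitted on its 6 libraries with edgeR 4.0.16 (limma 3.58.1, R 4.3.3; TMM, filterByExpr, glmQLFit, glmQLFTest), and the difference of the lesion effects as an interaction on all 12. P-values were adjusted by Benjamini-Hochberg over all transcripts tested, and a transcript was called at an adjusted p under 0.05. DESeq2 1.42.0, other scalings, filters and leaving out each library served as alternatives. Python 3.11.15, pandas 2.3.3, numpy 2.4.6 and matplotlib 3.10.9 were used otherwise.

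The text names the 8 members, 5 further family genes, genes of 4 lists, marker genes, and for each member the 3 genes of highest correlation (log2 of CPM + 0.05, mean of at least 1 CPM). From a list it names at most the 3 genes of largest absolute log2 fold change among those called in a comparison. *Lhx6*, *Mme* and *Pam*, and the markers *Drd1a*, *Penk* and *Cux2*, were added after their values were seen. The members, lists and motifs were chosen with earlier results of these data known.

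Lesioned and unlesioned libraries of the same replicate number deviated together from their group means (correlations 0.474, 0.477 and 0.385 after acute and 0.514, 0.572 and 0.157 after chronic L-DOPA, over 12797 genes), so the numbers were taken to pair them. The study describes the unlesioned side as a control within each mouse, whereas the series counts 12 mice for 12 libraries. Acute and chronic libraries were not paired (-0.144 to 0.231). No replicate was a copy of another. If libraries of a pair share a mouse, the fits without a block treat them as independent. Floors cover counting error alone, as no molecular identifiers were used. For groups of 3 the smallest p of an exact permutation test is 0.1, so none was run.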

Additional observations from a re-analysis of the deposited data

Results flagged for a closer look

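The lesion effect on *Npy* differed between the treatments. The difference was 0.65 on the log2 scale (chronic minus acute, SE 0.11, adjusted p = 0.00199), with all 3 chronic lesioned libraries above every other library.

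The lesion effect on the top *Galr2* row, AK137830 on the strand opposite to the gene, differed the other way, by -1.65 (SE 0.45, adjusted p = 0.0493), with all 3 acute lesioned libraries above every other library. On the sense transcript NM_010254 the difference was -1.21 (adjusted p = 0.282).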

How the results depend on the processing

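Over all alternatives, 530 values were computed for the members. Of these, 487 kept their direction or their lack of a call and their side of the threshold, 37 lost a call, 6 gained one and none reversed a call, while 12 changed sign with neither value called. *Gal*, *Galr1* and *Npy* stayed called between the sides after chronic L-DOPA under every alternative (2.56 to 3.59, 1.19 to 1.38 and 0.74 to 0.87 on the log2 scale), and *Galr2* after acute L-DOPA (1.50 to 2.36). *Gal* was kept by the filter only through the chronic lesioned libraries, where it is high. The difference of the lesion effects on *Galr2* passed in 5 of 20 alternatives (adjusted p 0.0211 to 0.282 over all of them).

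Calls over all transcripts moved by more than 1.5 times as follows, in the order acute, chronic, lesioned, unlesioned and difference of the lesion effects. With 1 transcript per gene, which tests fewer rows, 3135, 2663, 4911, 544 and 1053 were called in place of 16684, 15295, 29699, 3370 and 5911, and with summed transcripts 2643, 2311, 4310, 101 and 951. An adjusted p under 0.01 left 6708, 7079, 12539, 108 and 2474. In the unlesioned comparison DESeq2 called 6278, no filter 5821 and the cortical marker covariate 5085. That covariate and the reading of *Galr2* on NM_010254 were chosen after seeing the data. A fit of all 12 libraries called 22945 in the chronic comparison. Leaving out 1 library gave 9543 to 15329, 9137 to 14863, 16025 to 36534, 66 to 14377 and 3794 to 9536, where 14377 came without chronic unlesioned replicate 2. Except where a value or the alternative's construction is named, the cause was not tested.

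With the replicate number as a block, 28240 transcripts were called in the acute, 27506 in the chronic comparison and 15876 for the difference of the lesion effects. Among the members the pairing changed the calls of *Npy* (acute), *Npy5r* (chronic) and *Galr1* (difference) given above, and no other call between the sides. In the lesioned striatum, where numbers do not pair acute with chronic libraries, *Npy2r* lost its call with the block (0.56, adjusted p = 0.0548).

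Depth limits *Galr3* and, outside the chronic lesioned group, *Gal*, where a library held 2 to 9 counts.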
